A study of Mus musculus with 2 samples.

Results

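Genomic imprinting leaves a gene active on the copy inherited from 1 parent and silent on the other, under marks of DNA methylation laid down in the germ line. Many imprinted genes act on growth before and after birth, some as brakes and some as drivers, and several are expressed in muscle precursors, fall after birth and return when muscle regenerates. 9 such genes were read here in resting and immobilised muscle: H19, Meg3, Dlk1, Peg3, Cdkn1c, Grb10, Plagl1, Mest and Ndn. They were chosen by name, as every non-control probe of the arrays that carried 1 of these 9 symbols, among 25184 gene names on the array.

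The tissue was gastrocnemius, the large calf muscle, of male C57BL/6 mice that were 9 weeks old and are labelled wild type. The control group had no cast, and in the cast group the hindlimb was held in plaster for 11 days. Each group was a pool, read from the labels as RNA of 6 mice, hybridised to 1 one-colour Agilent whole mouse genome array. A pool gives no spread between mice, so no difference below has a replicate check or a test. In whole muscle, fewer cells of a type and less RNA per cell cannot be told apart.

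Both arrays lay on 1 slide and were scanned together. Between 56.8% (cast) and 60.6% (control) of the probes were well above background by the scanner software's flag, the 6 muscle fibre markers (Acta1, Ckm, Myh4, Myh1, Tnnt3, Pvalb) among them on both arrays. Levels are given as processed signal, a linear fluorescence intensity, and differences as the log2 ratio of cast to control after each signal was divided by its array's 75th percentile (385 for control, 486 for cast). A gene's value is that of its brightest probe well above background on both arrays, and 15037 genes had one. Dividing by nothing moved the median of all measured genes up by 0.34 on the log2 scale, and scaling on 7 spike-in RNAs moved it up by 0.35, so a log2 ratio less than 0.34 below 0 turns positive under both.

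The 9 genes had 19 probes on 28 spots per array. Of these probes, 14 were well above background on both arrays, 1 on the control array only and 4 on neither, and every gene had at least 1 probe of the first kind. No spot was saturated. Probes of both long non-coding RNAs are shown, each 60 bases read 5′ to 3′, since probes of 1 gene gave different signals.

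H19 probe 1: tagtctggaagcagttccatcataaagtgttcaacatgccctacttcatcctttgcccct
H19 probe 2: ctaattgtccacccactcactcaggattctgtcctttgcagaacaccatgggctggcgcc
Meg3 probe 1: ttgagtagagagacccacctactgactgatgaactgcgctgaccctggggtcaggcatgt
Meg3 probe 2: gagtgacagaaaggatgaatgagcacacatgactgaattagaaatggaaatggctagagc

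**Figure D1:**
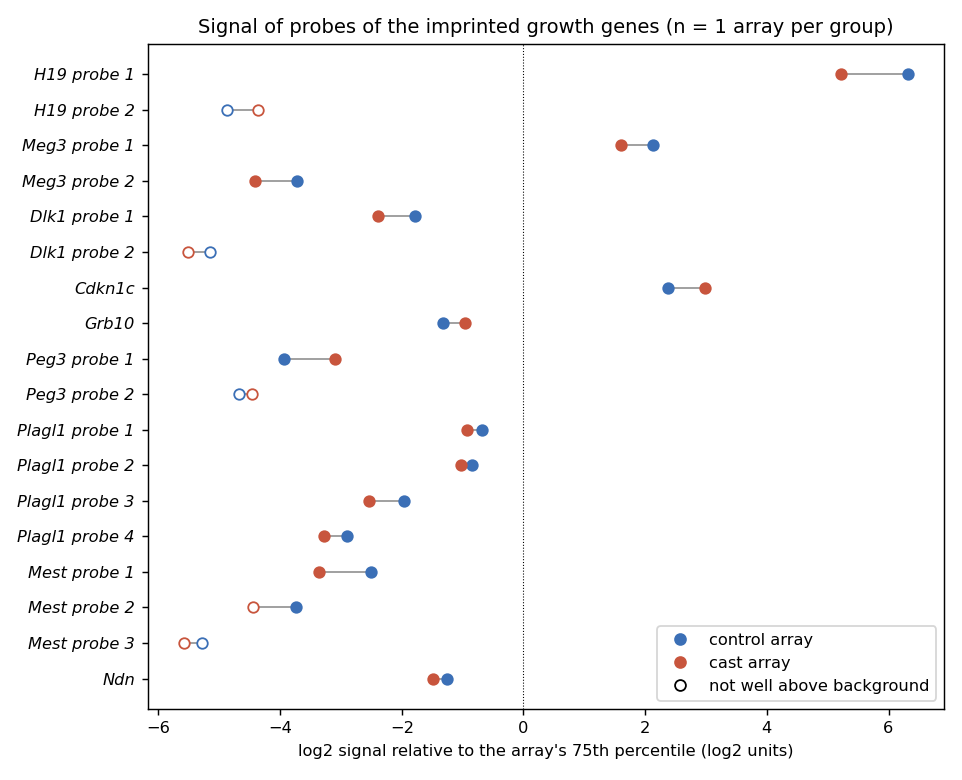
Probes of the 9 genes, with the log2 signal relative to the array's own 75th percentile on the x axis (blue, control array; red, cast array; open symbols, not well above background). Levels can be compared within a row, not between rows; both Meg3 probes drawn lay lower on the cast array and the Cdkn1c probe lay higher, while the Plagl1 and Ndn offsets turn the other way with no scaling or spike-in scaling.

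H19 showed the lowest ratio of the 9, and the one farthest from 0 under the reported scaling, while Peg3 was farther from 0 on unscaled and spike-in scaled signals. H19 is a spliced non-coding RNA made from the maternal copy, abundant in the embryo and kept on in adult skeletal muscle, and it restrains growth opposite its neighbour Igf2. Probe 1, at chr7:149761492-149761551 on the minus strand of mm9, read 30799 in control and 18011 in cast. That is a log2 ratio of -1.11, or 2.16-fold lower in the cast pool, with an error of 0.20 from the scanner software and 0.08 from the spread of repeated spots at that brightness. Of the 9 genes, 1 (H19) was at least 2-fold lower and 0 were at least 2-fold higher. Over all measured genes, 2.11% were at least 2-fold lower and 2.23% higher, 4.34% in all (335 higher and 317 lower, against 823 and 119 on unscaled signals). Ranked over all measured genes, 232 (1.54%) had a ratio as low or lower. With no scaling the H19 ratio was -0.77, under 2-fold but still lower on the cast array.

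H19 probe 2 lies 865 bases from probe 1, at chr7:149762417-149762476, and read 13.1 and 23.5, not well above background on either array. It gives no ratio, so the H19 value rests on 1 spot per array. H19 RNA also holds the hairpin of miR-675. Its mature forms, from RefSeq with the GRCm38.p6 names, are printed with the seed (bases 2 to 8) in capitals to show what the H19 value does not cover.

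mmu-miR-675-5p: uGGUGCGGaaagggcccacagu
mmu-miR-675-3p: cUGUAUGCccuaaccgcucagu

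The longest run of bases shared with the hairpin was 8 in H19 probe 1 and 6 in probe 2, so neither probe lies on the hairpin.

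Meg3, a maternally expressed non-coding RNA of chromosome 12, was lower in the cast pool at both probes described. Probe 1, at chr12:110809678-110809737 on the plus strand, read 1691 in control and 1470 in cast, a log2 ratio of -0.54 with a scanner error of 0.20 (1.45-fold lower). Probe 2, at chr12:110799558-110799617, read 29.1 and 22.8, a ratio of -0.69 with a scanner error of 0.35. The probes lie 10060 bases apart, and their ratios differed by less than the scanner error of either. Among all measured genes, 9.76% were as low as Meg3 or lower. With no scaling the ratio shrank to -0.20.

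Dlk1 lies upstream of Meg3 and is expressed from the other, paternal copy. It encodes a membrane protein with EGF-like repeats, related to the Notch ligands, that holds back fat cell formation and promotes muscle growth. Its probe 1 (chr12:110698721-110698781, plus strand) read 111 in control and 93.0 in cast. The log2 ratio was -0.60 (1.51-fold lower), with a scanner error of 0.22 and a spot error of 0.16. Dlk1 probe 2 read 10.8 and 10.6 and was flagged above background on neither array. Dlk1 and Meg3, known to be expressed from opposite parental copies of 1 domain, were thus lower by similar ratios in the same pool. The arrays do not tell parental copies apart. With no scaling both stayed lower, Dlk1 at -0.26 and Meg3 at -0.20, against scanner errors of 0.22 and 0.20.

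Cdkn1c and Grb10, both growth brakes made from the maternal copy in most tissues, were higher in the cast pool. Cdkn1c encodes p57, an inhibitor of cyclin-dependent kinases that helps myoblasts leave the cell cycle. Its only probe, at chr7:150644753-150644812 on the minus strand, read 1997 in control and 3848 in cast. The log2 ratio of 0.61 (1.52-fold higher) had a scanner error of 0.20 and a spot error of 0.08, and 6.48% of measured genes were as high or higher. Grb10 encodes an adaptor that binds the insulin and IGF1 receptors and dampens their signal. The Grb10 probe (chr11:11833165-11833224, minus strand) read 154 and 249, a log2 ratio of 0.36 with a scanner error of 0.21 (1.28-fold higher), and 16.4% of measured genes were as high or higher.

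Peg3 and Plagl1 encode zinc finger proteins of the paternal copy, and their ratios lay apart. Peg3, also called Pw1, marks satellite cells and other cells between the fibres. Its probe 1, at chr7:6658774-6658833 on the minus strand, read 25.2 in control and 56.8 in cast, both near the lowest signals well above background (13.1 in control, 20.6 in cast). The log2 ratio of 0.83 (1.78-fold higher) had a scanner error of 0.33 and was the highest of the 9, with 3.22% of measured genes as high or higher. The Peg3 ratio was 1.17 on unscaled and 1.18 on spike-in scaled signals, where Peg3 was the only 1 of the 9 genes past 2-fold. Under normexp background correction, which adds an offset of 50 to each signal, the Peg3 ratio fell to 0.13. Peg3 probe 2 read 15.1 and 22.2, not well above background on either array.

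Plagl1, a transcription factor that acts on other imprinted genes, had 4 probes, all well above background. Probe 1 (chr10:12850832-12850891, plus strand) read 239 and 256, a log2 ratio of -0.24 with a scanner error of 0.21. Probe 2, at chr10:12851280-12851339, read 213 and 239, a ratio of -0.17. Probes 1 and 2 share a run of 26 bases, the longest between any pair of probes of the 9 genes, so they are not independent readings.

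Run shared by Plagl1 probes 1 and 2: atctcctaacctttgatgactctgta
Plagl1 probe 3: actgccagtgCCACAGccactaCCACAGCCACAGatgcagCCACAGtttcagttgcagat

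Plagl1 probe 3 (chr10:12848421-12848480), in which capitals mark the word CCACAG found 4 times, read 98.4 and 83.7, a ratio of -0.57 with a scanner error of 0.23. Probe 4, at chr10:12848851-12848910, read 51.4 and 50.2, a ratio of -0.37. All 4 Plagl1 probes were below 0 after scaling, while on unscaled signals the ratio of probe 1 was 0.10 and on spike-in scaled ones 0.11, so the gene's value has no settled direction. Probes 3 and 4 were more than 0.34 below 0. From the highest to the lowest, the probes differed by more than the spot error of 0.10 to 0.16.

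**Figure D2:**
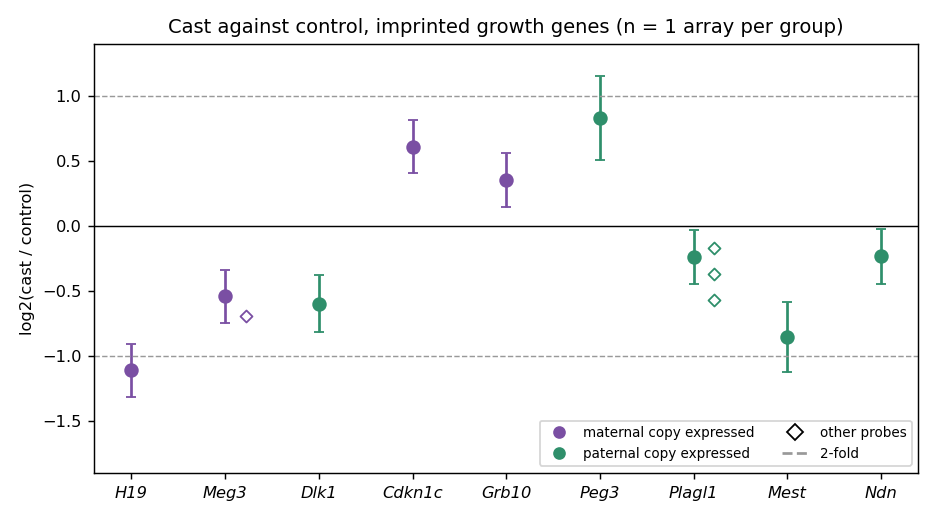
Log2 ratio of cast to control for each gene's brightest probe (circles; purple, maternal copy; green, paternal copy), with bars of 1 scanner error either side, and for other measured probes of Meg3 and Plagl1 (diamonds). H19 alone lies past the dashed 2-fold line at -1.11, and Plagl1 and Ndn, at -0.24 and -0.23, turn positive with no scaling or spike-in scaling.

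Mest gave the only repeated reading, since its brightest probe was printed on 10 spots of each array. Mest is a paternally expressed protein of the endoplasmic reticulum with a hydrolase fold, high in embryonic mesoderm and in growing fat. The 10 spots, at chr6:30698279-30698338 on the plus strand, ranged from 57.6 to 75.9 in control (median 69.6) and from 37.9 to 57.6 in cast (median 48.5). The highest cast spot lay just under the lowest control spot, so the spots of the arrays did not overlap even before scaling, and at 10 of 10 spot positions the cast array was lower. The mean log2 ratio was -0.85 with an SD of 0.13 over the 10 positions (range -1.13 to -0.63), which is 1.81-fold lower, and 3.31% of measured genes were as low or lower. These spots repeat 1 RNA pool, so the SD covers printing and scanning, not mice. With normexp the ratio was -0.47 and with no scaling -0.52.

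Mest probe 2 was well above background in control only, at 28.7 against 22.2 in cast. These signals lay 1.64-fold lower in cast after scaling and 1.29-fold lower unscaled. As the cast signal was not well above background, the size of this fold is not settled. Mest probe 3 read 9.83 and 10.1, not well above background on either array.

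**Figure D3:**
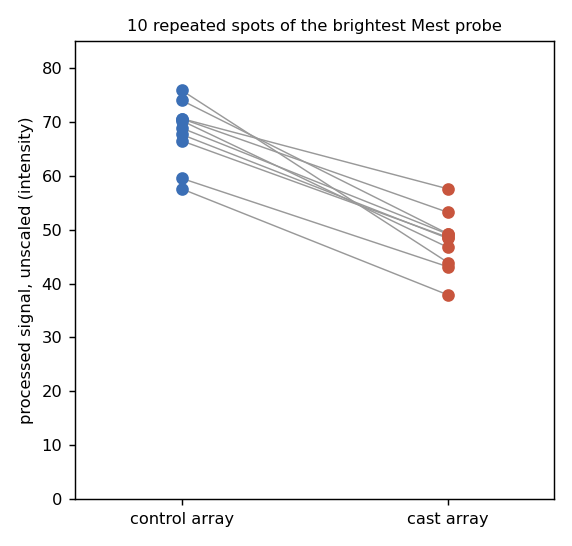
Processed signal, unscaled, of the 10 repeated spots of the brightest Mest probe on the control and the cast array, with a line joining the spots at each position. The control spots sit between 57.6 and 75.9, and every line falls.

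Ndn encodes necdin, a MAGE family protein of the paternal copy that supports muscle differentiation and survival of precursors. Its only probe is printed because it is the single reading of the gene.

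Ndn probe: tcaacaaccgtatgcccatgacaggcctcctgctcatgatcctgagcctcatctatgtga

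This probe, at chr7:69493847-69493906 on the plus strand, read 162 in control and 174 in cast. The log2 ratio of -0.23, with a scanner error of 0.21, was 0.10 on unscaled signals and 0.12 on spike-in scaled ones, so Ndn has no settled direction either. The 19 probes held 35.0% to 55.0% G and C with a median of 45.0%, against a median of 41.7% over all probes. Which exon or UTR each probe reads on mm9 was not looked up, as no gene models of that build were used here.

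Set side by side, 3 of the 9 ratios were above 0 (Peg3, Cdkn1c, Grb10) and 6 below (H19, Mest, Dlk1, Meg3, Plagl1, Ndn), with a median of -0.24. Over all measured genes the median was -0.03 and 53.0% were below 0. At 1.5-fold, Cdkn1c and Peg3 were higher, where 7.02% of measured genes were, and H19, Mest and Dlk1 were lower, where 8.23% were (15.2% in either direction). Dlk1 lay near that threshold and was under it in 7 of 11 alternatives, Mest in 3, and Cdkn1c and Peg3 in 1 each. The other 4 alternatives left the Dlk1 ratio unchanged at -0.60, so every alternative that moved this ratio took Dlk1 under 1.5-fold. Those 4 left the Mest, Cdkn1c and Peg3 ratios unchanged too. With the mean of its probes, Meg3 passed 1.5-fold at -0.65. The order from lowest to highest was H19, Mest, Dlk1, Meg3, Plagl1, Ndn, Grb10, Cdkn1c and Peg3. Neighbours in that order differed by less than the larger scanner error of the pair, except Meg3 and Plagl1, Ndn and Grb10, and Grb10 and Cdkn1c. Parental copy, taken from what is known of each gene and not measured here, did not sort the genes. Of the 4 maternal genes 2 were above 0 and 2 below (median -0.09). Of the 5 paternal genes 1 was above and 4 below (median -0.24). Both of those medians move by 0.34 with no scaling, which turns them positive.

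**Figure D4:**
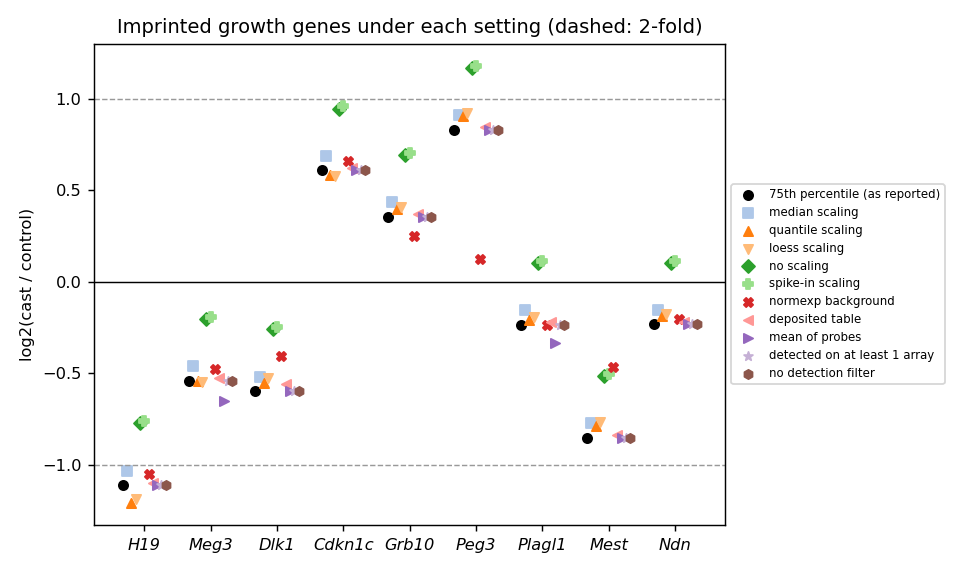
Log2 ratio of cast to control of each of the 9 genes under the reported scaling (black) and 10 of the 11 alternatives, the one not drawn being the naming of probes by accession; dashed lines mark 2-fold. Plagl1 and Ndn cross 0 when signals are unscaled or spike-in scaled, and Peg3 spans 0.13 to 1.18.

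Of the genes, 7 kept their sign under all 11 alternatives, while Plagl1 and Ndn kept it under 9. Looser detection filters and other probe naming left every ratio unchanged, and the mean of probes changed only those of Meg3 and Plagl1. These alternatives are thus no check on a gene whose ratio they left unchanged. Unscaled signals, spike-in and median scaling and the deposited table moved the Peg3, Cdkn1c and Grb10 ratios up. They are therefore no check on whether these ratios lie above 0. Quantile and loess scaling and normexp were the remaining checks, and left those ratios above 0. H19 ranged from -1.21 to -0.76 and Cdkn1c from 0.58 to 0.96, so these genes of distal chromosome 7, both maternally expressed, stood on opposite sides of 0 throughout.

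Other imprinted genes of the same domains mostly stood closer to 0. On distal chromosome 7, 9 of 11 genes on the array were measured, with a median of -0.03 (0.31 with no scaling). None was past 1.5-fold under the reported scaling, and 2 were with no scaling, Osbpl5 (0.51 as reported, 0.84 unscaled) and Slc22a18 (0.46 and 0.79). Igf2, the growth factor that shares enhancers with H19, read only 27.0 and 24.0, a ratio of -0.51. Nap1l4 was at -0.38, and the Phlda2 probe was flagged on neither array. In the Dlk1-Meg3 domain Mirg was at -0.21 and Begain at -0.08, values that turn positive with no scaling, and Rtl1 and Dio3 were not well above background.

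Around Ndn, 5 of 7 genes were measured, with a median of -0.46 (-0.12 with no scaling). Snrpn and Peg12, both of the paternal copy, were each at -0.75 by their brightest probe, and Snrpn read 1159 and 871. Their dimmer probes lay nearer 0, up to -0.25 for Snrpn, which turns positive with no scaling, and -0.35 for Peg12. Atp10a was at -0.46. Mkrn3, at 0.20, and Ube3a, at 0.10, lay above 0, and a dimmer Ube3a probe was at 0.69. Magel2 was not well above background.

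The Grb10 domain held the highest ratio of any imprinted gene listed. Ddc, the enzyme that makes dopamine and serotonin from their precursors, read 39.4 in control and 294 in cast, a log2 ratio of 2.56 (5.91-fold higher). A further Ddc probe, 56.84 kb from the Grb10 probe, read 8.85 and 15.9, not well above background on either array. Cobl, on the other side of Grb10, was at 0.33 and Grb10 itself at 0.36.

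Across 42 measured imprinted genes outside the 9, the median ratio was -0.12 (0.21 with no scaling), with 16 above 0 and 26 below, 1 at least 2-fold higher and 2 at least 2-fold lower, where 2.23% and 2.11% of all measured genes were. On unscaled signals 33 were above 0 and 9 below, 1 at least 2-fold higher and 1 lower. The genes past 2-fold lower were Nnat, a small membrane protein, from 155 to 69.5 (log2 ratio -1.49), and Slc38a4, an amino acid transporter, from 1725 to 908 (-1.26, and -0.93 unscaled). By their brightest probes, Peg13 at 0.58 and Mcts2 at 0.49 were the highest of the domains that hold none of the 9. Probes of 1 gene disagreed there in places. A dimmer Gnas probe was at 2.23 against -0.22 for the brightest, and H13 probes ranged from -0.15 to 0.84. Whether each of these genes is imprinted in this muscle was not measured. With no replicates, the place of the 9 among the listed imprinted genes is a description of these arrays.

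**Figure D5:**
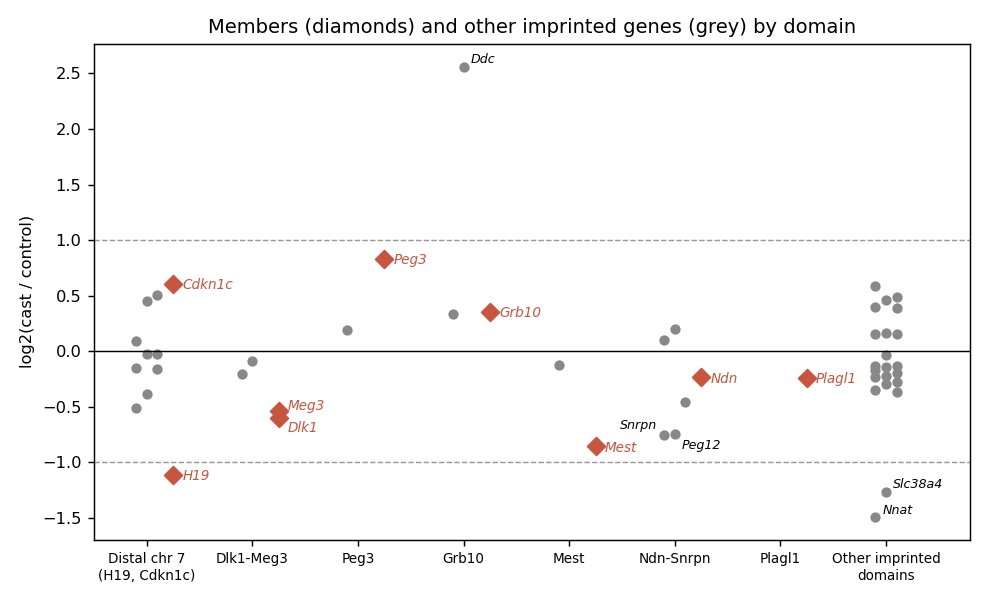
Log2 ratio of cast to control of the 9 genes (red diamonds) and of other imprinted genes (grey) by domain, with genes of remaining domains at the right; dashed lines mark 2-fold. H19 at -1.11 sits below every other gene drawn for distal chromosome 7, and Ddc at 2.56 is the highest point; points less than 0.34 below 0 turn positive with no scaling.

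Probes within 100 kb of each of the 9 genes on mm9 were read as well, by a window chosen after values had been seen. Around H19, 8 of 8 such probes were well above background, with ratios from -0.94 to 0.16. Nctc1, a muscle non-coding RNA 21.79 kb away, read 13609 and 19174, a ratio of 0.16, and Mrpl23, 34.84 kb away, was at 0.09. Of the Tnnt3 probes, 1 was at -0.94 and 1 at -0.27. The H19 ratio was lower than each of these. At Mest, probes of Copg2 lie 153 and 490 bases away on the opposite strand and were at -0.25 and -0.12, values that turn positive with no scaling, against -0.85 for Mest.

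Genes of related pathways and families were described by lists. Of 12 measured genes listed for IGF and insulin signalling around Grb10 and H19, 5 were above 0 and 7 below. Their median was -0.07 (0.27 with no scaling), with 2 at least 1.5-fold higher and none at least 1.5-fold lower. The kinase Akt1 was at 0.85, Hmga2 at 0.69, the IGF1 receptor gene Igf1r at 0.38 and the receptor substrate Irs1 at -0.52. The gene Igf1, at -0.13, lay nearer 0 and turns positive with no scaling. Igf2r, counted among the other imprinted genes and not in this list, was at 0.17.

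Among 13 Notch pathway genes related to Dlk1, the median was -0.08 (0.25 with no scaling), with 6 above 0 and 7 below. The ligand Dll1 read 67.8 and 185, a ratio of 1.11, and the Notch target Hes1 was at 0.59, while Notch4 was at -0.58 and Notch1 at 0.44. Dlk2, the closest relative of Dlk1, was at -0.23 and turns positive with no scaling.

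Of 11 measured cell cycle genes around Cdkn1c, 4 were above 0 and 7 below, with a median of -0.07 (0.27 with no scaling). Cdkn1a, which encodes the related inhibitor p21, went from 254 to 1241, a ratio of 1.95, against 0.61 for Cdkn1c and 0.08 for Cdkn1b, which encodes p27. The retinoblastoma gene Rb1 was at 1.85, cyclin D1 gene Ccnd1 at -1.08 and Cdkn2b at -0.86. The family relatives stood apart from their imprinted members in places: Grb14, an adaptor like Grb10, went from 527 to 187 (log2 ratio -1.83), where Grb10 was at 0.36. Maged2, a MAGE relative of Ndn, was at 0.92, Plagl2 at 0.54 and Maged1 at 0.25. Siah1a, listed with these genes but not a family relative of an imprinted gene read here, was at 0.89.

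Of 12 measured genes that set or keep imprints, 5 were above 0 and 7 below, with a median of -0.02 (0.32 with no scaling). Zfp57, which guards imprint methylation, was at -0.83, and the methyltransferase genes Dnmt3a and Dnmt1 were at -0.71 and -0.53. The brightest of 3 measured Dnmt3b probes was at 0.44 and the lowest at -0.19, so they differed in sign. Methylation itself was not measured.

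Several of the 9 genes are expressed outside the fibre, so cell type markers were read beside them. The 8 markers of fibro-adipogenic progenitors and connective tissue were all below 0, from -1.76 to -0.04 with a median of -0.49, and those nearest 0 turn positive with no scaling. Their summed level went from 178 to 129 times the 75th percentile. The 5 endothelial markers, with 1 above 0, had a median of -0.32, which turns positive with no scaling, and went from 11.3 to 8.36. Of 5 measured satellite cell and myoblast markers, 4 were above 0. The median of the 5 was 0.08, and their summed level went from 4.44 to 9.26. Cdh15 alone went from 3.17 to 8.07, and the sum of the other 4 went from 1.28 to 1.19, with Vcam1 at -0.72 and Myf5 not well above background. The 6 muscle fibre markers had 1 above 0 and a median of -0.24, which turns positive with no scaling. The 5 tenocyte markers had the lowest median of any cell type read, -0.81, with Tnmd at -1.25 and Fmod at -1.11. But Scx and Thbs4 were above 0, at 0.48 and 0.46. The summed tenocyte level went from 32.8 to 35.6, and without Thbs4 from 15.1 to 11.1. Of 4 measured adipocyte markers 1, Retn at 0.86, was above 0, and the median was -0.09 (positive with no scaling). The adipocyte sum went from 40.1 to 37.2, and without Cfd from 5.39 to 6.00. Medians of smooth muscle, macrophage and Schwann cell markers lay between -0.17 and -0.03, turning positive with no scaling, and both measured erythrocyte markers were above 0. The part of these cell types in the ratios of the 9 genes was not tested.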

How the data were processed

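Gene expression was measured on 1 array for control and 1 for cast. The submitters' processing notes name Agilent Feature Extraction 9.5 as the software behind the deposited spot intensity. This processed intensity is, per the file headers, background-subtracted and detrended within the array, not normalized between arrays, and the probe coordinates are on mm9. Above-background flags are deposited beside it.

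Non-uniform spots were left out (2 in control, 9 in cast), the intensity was log2-transformed, repeated spots were averaged, and each array's 75th percentile over non-control probes was subtracted. A probe counted as measured when more than 0.5 of its spots were flagged well above background on both arrays. Probes were renamed through their accession (26055 probes; reference names of GRCm38.p6), which added none to the 9 genes. The scanner error is the software's error of the processed signal, carried to the log2 ratio. The spot error is the SD between spots of 259 repeated probes, in 4 groups by brightness. The number of arrays limits the precision.

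The deposited table of the whole series was found to be the processed intensity over the 75th percentile of all spots times 100, rounded in part: 100.0% of its values lay within 0.5 of that prediction and 55.0% were exact whole numbers (medians 10.0 for control and 9.25 for cast), and served as an alternative. Its scale and direction are thus known, and it is not centred.

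The 9 genes and the lists were chosen with earlier results of these data known. All 9 genes are named with their probes, and 1 probe's sequence and values are not reported here. From each other list, up to 4 genes with the largest ratios in either direction are named, along with further genes of the same domains, receptors, family relatives and cell markers whatever their value. Genes named near H19 and Mest, and Gnas and H13, were chosen after their values were seen. Alternatives were loess, quantile, median and spike-in scaling, unscaled signals, normexp (limma 3.58.1 in R 4.3.3), the deposited table, the mean of probes, other probe naming and other detection filters. The ratio script was tested on simulated data.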

Additional observations from a re-analysis of the deposited data

How the results depend on the processing

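The cause of each difference between settings was not tested. Over the 9 genes and 11 alternatives, 72 ratios moved by less than the spot error and 27 by more, and Plagl1 and Ndn changed sign on unscaled and on spike-in scaled signals. The 72 include ratios that did not move at all. Looser detection filters and other probe naming changed none, and the mean of probes changed only Meg3 and Plagl1. With no scaling, the median of the 9 genes was 0.10, with 1 at least 2-fold higher and 0 lower. At 1.5-fold, 3 were higher, Grb10 now among them, and 1 was lower. Over the array, 823 genes were at least 2-fold higher and 119 lower. With spike-in scaling these values were 0.11, 1, 0, 3 (again with Grb10), 1, 852 and 117. Under normexp, 1 of the 9 was at least 1.5-fold higher and 1 lower, and 184 and 148 genes were past 2-fold. Under loess, 1 of the 9 was at least 1.5-fold higher and 2 lower. The count at least 1.5-fold lower, 3 as reported, was also 2 under median and quantile scaling and in the deposited table, and 4 with the mean of probes. Past 2-fold, 534 genes were lower where a probe had to be detected on at least 1 array, 748 were higher and 871 lower with no detection filter, and 137 and 124 among brighter genes only. As reported, 335 were higher and 317 lower. No paired analysis was possible because each group has 1 array, and no replicate could be left out. Dim probes limit the precision: Peg3, Mest, Dlk1 and the dimmer Meg3 probe lay in the dimmest of 4 brightness groups, where the spot error was 0.16.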
